A study of Homo sapiens with 6 samples.

Results

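The 45 genes described here encode the nucleolar machinery that makes ribosomes. They comprise 7 genes of RNA polymerase I transcription, 3 core proteins each of the box C/D and box H/ACA small nucleolar ribonucleoproteins (snoRNPs), 10 factors of the small ribosomal subunit, 5 proteins grouped as abundant nucleolar proteins and 3 groups of large subunit factors. These last are the 3 proteins of the PeBoW complex, 6 proteins around the endonuclease LAS1L and 8 other assembly factors. They were chosen by gene name from knowledge of the pathway, not by their values, although results of these data were already known when the list was drawn up. The table holds 60612 genes, 18106 of them passed edgeR's filter on low counts, and all 45 were among those tested.

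The cells were U87, an established human glioblastoma line, grown in DMEM with serum. NC cells carried a scramble shRNA and shPRMT6 cells an shRNA against PRMT6, an arginine methyltransferase that adds asymmetric dimethyl marks to histones and other proteins. Both shRNAs came in by lentivirus and, per the methods, infected cells were selected with puromycin for stable expression, so both groups carry an integrated vector, and which of the PRMT6 shRNAs was sequenced is not given in the sources used here. RNA was sequenced in 3 NC and 3 shPRMT6 libraries, which the methods call independent replicates of 1 cell line, and the only comparison was shPRMT6 against NC.

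Ribosomes are built in the nucleolus. RNA polymerase I transcribes a long precursor of the ribosomal RNAs, box C/D and box H/ACA snoRNPs modify it by 2′-O-methylation and pseudouridylation, and a large set of assembly factors cuts and folds it around the ribosomal proteins. The pathway is known for its high activity in fast growing tumour cells, and many of its genes are known targets of the transcription factor MYC.

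Total counts ran from 56388161 to 75887696 in NC and from 61805330 to 67630740 in shPRMT6. PRMT6 had 522, 606 and 449 counts in the NC libraries, in the order of their numbers, against 227, 282 and 355 for shPRMT6, and its log2 fold change was -0.87 (SE 0.187, Benjamini-Hochberg adjusted p = 0.0225, edgeR's quasi-likelihood test). Leaving out NC replicate 1, shPRMT6 replicate 1 or shPRMT6 replicate 2 gave PRMT6 an adjusted p of 0.0614, 0.0588 and 0.0713 (same test). Of the glial and glioma markers, VIM (7090 to 8427 CPM), CD44 and EGFR were abundant, and NES had 38.3 to 45.7 CPM. CHI3L1 and OLIG2 were low, and GFAP, SOX2 and S100B had at most 0.886 CPM. CHI3L1 was higher in shPRMT6 (log2 fold change 1.62, adjusted p = 0.0029, same test) and EGFR was lower (-0.46, adjusted p = 0.0081, same test). VIM, CD44, NES, OLIG2, GFAP and SOX2 did not pass the test. CDKN2A and MTAP, which U87 has lost, had at most 0.434 CPM. PTPRC, EPCAM, ALB and RBFOX3 of other cell types had at most 0.977 CPM and PECAM1 at most 5.23 CPM, while CD68, a lysosomal protein that tumour cells also make, had 144 to 316 CPM. The share of mitochondrial genes was between 7.06% and 7.85% for NC and between 9.69% and 10.2% for shPRMT6, and their part in the results was not tested.

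Of the 45 genes, 11 were lower in shPRMT6 and 2 were higher at an adjusted p under 0.05, and 32 did not pass the test. The lower genes were BOP1, NOP56, NOC4L, FBL, WDR18, NHP2, LAS1L, MRTO4, RRP9, WDR43 and NOC2L, and the higher genes were NOLC1 and POLR1B. The 11 lower genes are 24.4% of the list, beside 9.06% of all genes tested, and the 2 higher genes are 4.44%, beside 9.51%. No change was larger than 1 on the log2 scale. The values ran from -0.89 (NOC4L) to 0.89 (NOLC1). The median log2 fold change was -0.06, beside -0.01 over all genes tested, with 29 of the 45 genes below 0 and 16 above. The shPRMT6 libraries all lay below the NC libraries in 16 of the 45 genes and all lay above in 4, beside 19.9% and 20.3% of all genes tested, and in 25 genes the groups overlapped. The numbers of lower genes were 7 without NC replicate 3 and 6, 5 and 7 when shPRMT6 replicate 1, 2 or 3 was left out, each time with 1 higher gene. The shares of all genes tested fell as well in those 4 fits, to 4.91%, 4.89%, 4.52% and 4.9% lower and 5.35%, 5.06%, 4.73% and 4.99% higher.

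**Figure D1:**
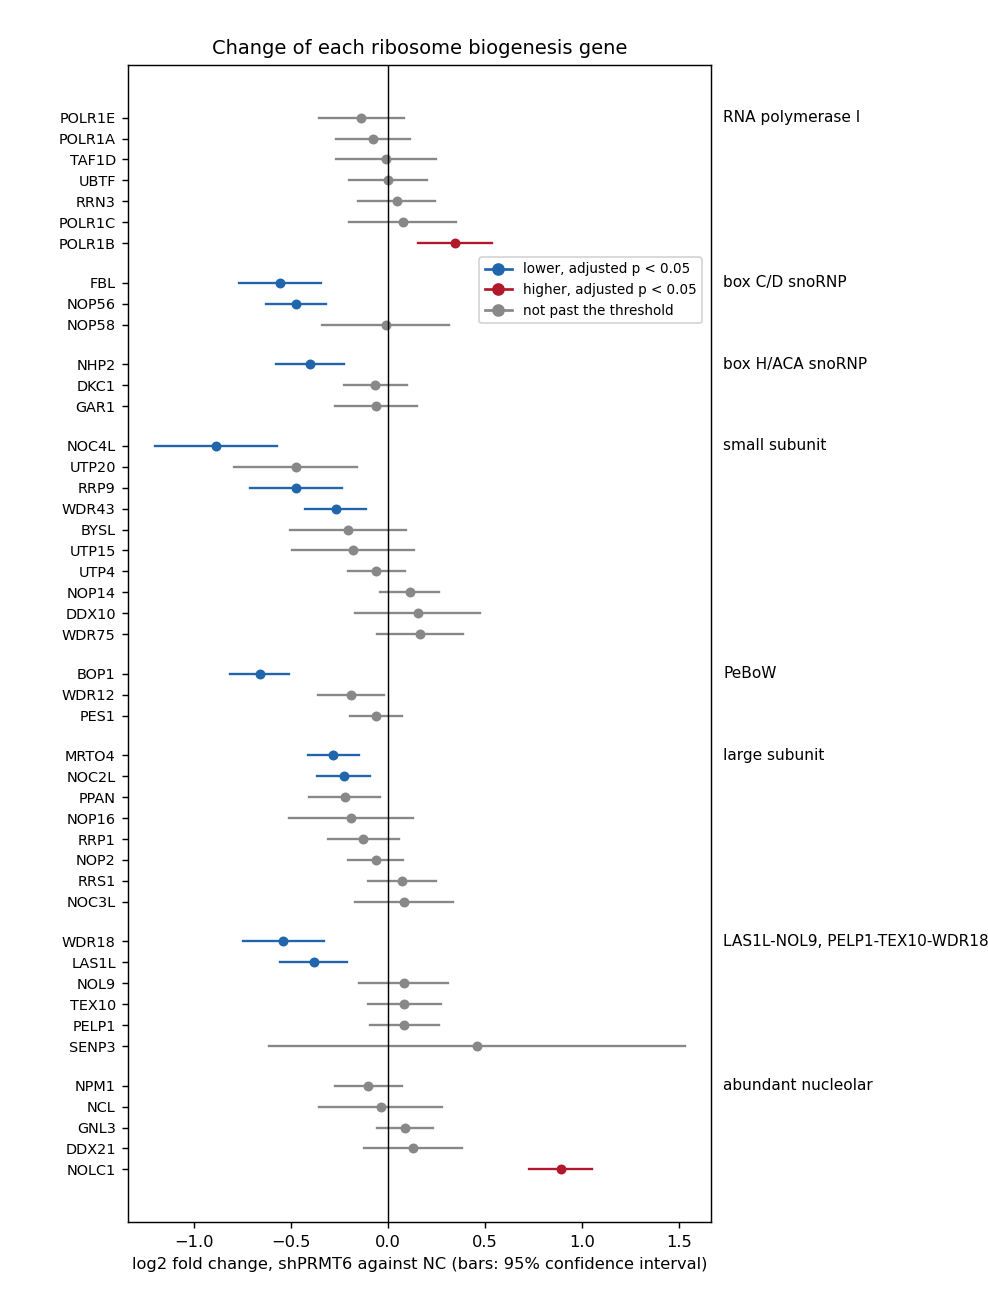
Log2 fold change of each of the 45 genes (x axis, shPRMT6 against NC, with its 95% confidence interval from edgeR) in role groups (y axis). The 11 lower genes (blue) are spread over 6 of the 8 role groups, and the 2 higher genes (red) are NOLC1 and POLR1B.

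The median of the 45 genes, each taken as log2 CPM relative to its NC mean, was 0.02, 0.03 and -0.04 over the NC libraries and -0.09, -0.06 and -0.08 over the shPRMT6 libraries. CPM are read counts scaled to library size with edgeR's TMM factors, so they are relative to the rest of each library. A lower level in every cell, fewer cells that express the gene and a change in total RNA per cell cannot be told apart in such bulk values.

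**Figure D2:**
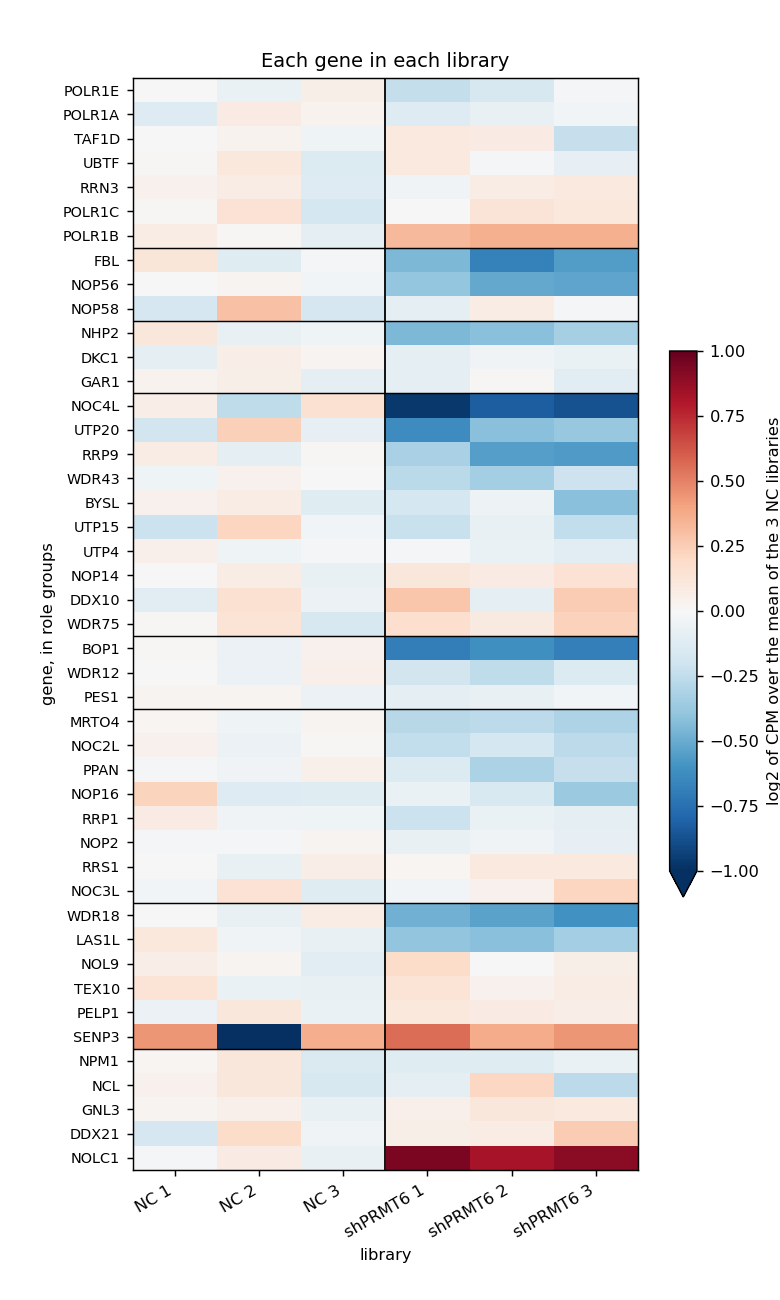
Each of the 45 genes (rows, in role groups) in each of the 6 libraries (columns), as log2 of its CPM over the mean CPM of the 3 NC libraries. NOLC1 is high and BOP1, NOC4L, FBL and WDR18 are low in every shPRMT6 library, and SENP3 is low in NC replicate 2 alone.

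Promoter sequence is a feature that the list did not use. The E-box CACGTG, the palindrome that the MYC and MAX family of factors is known to bind, was searched in RefSeq promoter windows of GRCh38.p14 that run from 250 bases before to 50 bases after each annotated start. The letters are the same on both strands. Of the 45 genes, 40 had a window in the table, and 16 of these 40 (40%) held the E-box, beside 12.1% of the 11796 tested genes with a window and 8.77% of all 27305 genes with one. BOP1, NOP58, NOLC1, RRS1 and POLR1E were not in it. By window, 16 of 50 (32%) held it, beside 7.26% of all 35116 windows. It began within 50 bases of a start in 15 of the 16 genes, PELP1 being the exception at position -242. The windows end 50 bases after the start, and the same share was not computed for other genes, so this position is not a trait particular to the list. The E-box was found in 4 of 10 lower genes, 12 of 29 genes that did not pass the test (41.4%) and 0 of 1 higher gene, POLR1B. The 30 bases around the E-box are given for the 4 lower genes that hold it and for UTP4 and PES1, which did not pass the test, so that both kinds of gene can be read side by side. Capitals mark the E-box, each sequence is written 5′ to 3′ on the strand of its gene, and positions are on GRCh38.p14.
FBL (chr19:39846356-39846385, minus strand): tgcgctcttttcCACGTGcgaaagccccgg
RRP9 (chr3:51941892-51941921, minus strand): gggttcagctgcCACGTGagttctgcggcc
MRTO4 (chr1:19251807-19251836, plus strand): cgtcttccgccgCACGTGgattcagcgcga
WDR43 (chr2:28894658-28894687, plus strand): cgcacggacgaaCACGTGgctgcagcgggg
UTP4 (chr16:69132621-69132650, plus strand): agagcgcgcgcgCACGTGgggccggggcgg
PES1 (chr22:30591880-30591909, minus strand): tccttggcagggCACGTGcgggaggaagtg
A match of 6 letters is a description of the window and not a bound site.

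The 7 genes of RNA polymerase I transcription included 1 higher gene, POLR1B, and no lower gene. POLR1B (ENSG00000125630, chr2:112541915-112577150, plus strand of GRCh38 as for all gene positions here) encodes the subunit that forms the catalytic centre together with POLR1A. It had 23.2, 22.3 and 20.8 CPM in NC and 27.7, 28.2 and 28.3 CPM in shPRMT6. All 3 shPRMT6 libraries lay above all 3 NC libraries, and those of shPRMT6 were close together. POLR1B rose by 0.35 on the log2 scale (SE 0.0797, Benjamini-Hochberg adjusted p = 0.0283, edgeR's quasi-likelihood test). POLR1B lost its call when NC replicate 3 was left out (adjusted p = 0.0897) or any 1 shPRMT6 library (0.0824, 0.0975 and 0.091 for replicates 1, 2 and 3, same test), and when trends on GC content and length were removed (log2 fold change 0.26, adjusted p = 0.069). POLR1A, the largest catalytic subunit, had 50.02, 57.9 and 56.04 CPM in NC and 49.9, 52.0 and 53.6 CPM in shPRMT6, a log2 fold change of -0.08 (95% interval -0.27 to 0.11). The level of POLR1B relative to POLR1A, as a ratio of FPKM (per transcript length), was 0.609 ± 0.0748 in NC and 0.813 ± 0.0202 in shPRMT6 (SD, n = 3). POLR1E, a subunit of the heterodimer that aids initiation and elongation, POLR1C, shared with RNA polymerase III, the promoter factor UBTF, the initiation factor RRN3 and TAF1D of the selectivity factor had log2 fold changes from -0.14 (POLR1E) to 0.08 (POLR1C). None of these 5 passed the test.

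The box C/D snoRNP places 2′-O-methyl groups on ribosomal RNA, and its core proteins in the list are the methyltransferase FBL and the paired scaffold proteins NOP56 and NOP58. FBL and NOP56 were lower in shPRMT6. FBL (fibrillarin, ENSG00000105202, chr19:39834458-39846414, minus strand), which after NPM1 had the highest level of the 45 genes in NC by FPKM, had 392, 331 and 357 CPM in NC and 264, 226 and 244 CPM in shPRMT6. The highest shPRMT6 library lay well below the lowest NC library. FBL fell by 0.56 on the log2 scale (SE 0.0875, Benjamini-Hochberg adjusted p = 0.0078, edgeR's quasi-likelihood test), and its mean fell to 68.0% of NC. NOP56 (ENSG00000101361, chr20:2652145-2658393, plus strand) had 78.1, 80.1 and 76.9 CPM in NC and 59.99, 54.9 and 54.5 CPM in shPRMT6, again with no overlap. Its log2 fold change was -0.47 (SE 0.0655, adjusted p = 0.0052, same test). NOP58 had 58.8, 80.8 and 58.8 CPM in NC and 62.0, 69.6 and 65.2 CPM in shPRMT6, and the groups overlapped. NC replicate 2 was the highest of the 6 libraries for NOP58, whose log2 fold change was -0.01 (95% interval -0.34 to 0.32) and 0.16 without that library. The FPKM ratio of NOP56 to NOP58 was 0.799 ± 0.125 in NC and 0.570 ± 0.0609 in shPRMT6 (SD, n = 3) with no overlap. The ratio of FBL to NOP58 was 8.60 ± 2.07 and 5.75 ± 0.776 and overlapped, with NC replicate 2 the lowest NC library, and that of FBL to NOP56 was 10.7 ± 1.03 and 10.1 ± 0.449 and overlapped. These pairs, like the others given as ratios, were chosen with the values known and were not tested.

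The box H/ACA snoRNP turns uridine into pseudouridine. NHP2, a core protein of this particle and of telomerase, was lower in shPRMT6, and the pseudouridine synthase DKC1 and the core protein GAR1 did not pass the test. NHP2 (ENSG00000145912, chr5:178149460-178153967, minus strand) had 104, 91.6 and 93.8 CPM in NC and 70.7, 72.1 and 76.5 CPM in shPRMT6, with no overlap between the groups. NHP2 fell by 0.40 on the log2 scale (SE 0.0734, Benjamini-Hochberg adjusted p = 0.013, edgeR's quasi-likelihood test), and NHP2 lost its call when shPRMT6 replicate 1 or 2 was left out (adjusted p = 0.0572 and 0.0596). Of the exon bases of NHP2, 27.4% lie over RMND5B on the opposite strand, which had 20.01, 15.4 and 22.0 CPM in NC and 14.9, 14.3 and 12.1 CPM in shPRMT6. Whether strand was used in counting is not given in the sources used here, so reads of the 2 genes cannot be told apart where they overlap. The log2 fold change was -0.06 for DKC1 (95% interval -0.23 to 0.10) and -0.06 for GAR1 (-0.27 to 0.15). The FPKM ratio of NHP2 to DKC1 was 4.37 ± 0.574 in NC and 3.44 ± 0.139 in shPRMT6 (SD, n = 3), while that of GAR1 to DKC1 was 0.698 ± 0.064 and 0.697 ± 0.0216.

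Of the 10 small subunit genes, 3 were lower in shPRMT6 (NOC4L, RRP9 and WDR43) and none was higher. NOC4L (ENSG00000184967, chr12:132144448-132152473, plus strand), whose yeast counterpart works with that of NOP14 in small subunit maturation, fell most of the 45 genes. It had 17.9, 14.3 and 19.0 CPM in NC and 8.75, 9.68 and 9.33 CPM in shPRMT6. The NC libraries were spread more widely than the shPRMT6 libraries, and the groups were far apart. NOC4L fell by 0.89 on the log2 scale (SE 0.132, Benjamini-Hochberg adjusted p = 0.0065, edgeR's quasi-likelihood test) and the mean fell to 54.1% of NC. NOP14 had 65.0, 68.3 and 61.9 CPM in NC and 70.3, 68.9 and 71.8 CPM in shPRMT6, with all shPRMT6 libraries above NC. Its log2 fold change was 0.11 (95% interval -0.04 to 0.27) and did not pass the test. The FPKM ratio of NOC4L to NOP14 was 0.466 ± 0.0884 in NC and 0.231 ± 0.0144 in shPRMT6 (SD, n = 3). NOP14-AS1 lies over 17.1% of the exon bases of NOP14 on the opposite strand and had 4.37 to 8.14 CPM.

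RRP9 (ENSG00000114767, chr3:51933430-51941941, minus strand), a protein of the U3 snoRNP that guides the early cuts of the precursor, had 35.7, 31.7 and 34.1 CPM in NC and 27.0, 23.2 and 22.9 CPM in shPRMT6. The groups did not overlap. RRP9 fell by 0.47 on the log2 scale (SE 0.0986, Benjamini-Hochberg adjusted p = 0.0203, edgeR's quasi-likelihood test). Leaving out NC replicate 1 or 3 gave RRP9 an adjusted p of 0.0578 and 0.0663, and leaving out shPRMT6 replicate 2 or 3 gave 0.082 and 0.0759. WDR43 (ENSG00000163811, chr2:28894643-28948222, plus strand), a subunit of the complex that binds the precursor first and aids its transcription, had 62.4, 66.2 and 64.4 CPM in NC and 53.5, 50.8 and 55.8 CPM in shPRMT6. Its groups were apart by a small margin, with a log2 fold change of -0.27 (SE 0.0659, adjusted p = 0.0349, same test). The call of WDR43 was lost without any 1 of the 6 libraries (adjusted p from 0.0531 to 0.131). UTP4, UTP15 and WDR75 of the same complex had log2 fold changes of -0.06, -0.18 and 0.16 and did not pass the test.

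UTP20, a large scaffold protein of the small subunit processome, is named here after its values were seen, since it lay just outside the threshold. It had 36.0, 48.1 and 38.5 CPM in NC and 26.4, 30.5 and 31.3 CPM in shPRMT6 with no overlap, and its log2 fold change was -0.47 (SE 0.133, Benjamini-Hochberg adjusted p = 0.0523, edgeR's quasi-likelihood test). UTP20 passed in 5 of the 16 other fits, and its adjusted p ran from 0.0068 with trends on GC content and length removed to 0.151 without shPRMT6 replicate 1. Of the 6 fits that left out 1 library, it passed in that without NC replicate 1 (adjusted p = 0.0482), and the log2 fold change in those 6 ran from -0.56 to -0.34. BYSL and the RNA helicase DDX10, the other small subunit genes, had log2 fold changes of -0.21 (95% interval -0.50 to 0.09) and 0.15 (-0.17 to 0.48).

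The PeBoW complex of PES1, BOP1 and WDR12 is needed to process the RNA of the large subunit. BOP1 (ENSG00000261236, chr8:144262102-144291370, minus strand) had 67.8, 64.6 and 69.1 CPM in NC and 41.5, 43.9 and 41.9 CPM in shPRMT6. Within each group the libraries differed by little, and the groups were far apart. BOP1 fell by 0.66 on the log2 scale (SE 0.0642, Benjamini-Hochberg adjusted p = 0.0017, edgeR's quasi-likelihood test), and its mean fell to 63.2% of NC. WDR12 had 45.4, 43.3 and 46.8 CPM in NC and 39.7, 37.9 and 41.1 CPM in shPRMT6 with no overlap, but its log2 fold change of -0.19 (95% interval -0.36 to -0.02) did not pass the test after adjustment. PES1 had 119, 119 and 112 CPM in NC and 110, 111 and 115 CPM in shPRMT6, which overlapped, and a log2 fold change of -0.06 (95% interval -0.20 to 0.07). The FPKM ratio of BOP1 to PES1 was 0.679 ± 0.0439 in NC and 0.448 ± 0.0181 in shPRMT6, and that of BOP1 to WDR12 was 3.51 ± 0.0223 and 2.54 ± 0.175 (SD, n = 3).

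Of the 8 other assembly factors of the large subunit, MRTO4 and NOC2L were lower. MRTO4 (ENSG00000053372, chr1:19251539-19260128, plus strand), which holds the place of the ribosomal stalk on the precursor particle, had 99.5, 94.97 and 99.7 CPM in NC and 80.9, 82.0 and 79.4 CPM in shPRMT6. MRTO4 fell evenly over the libraries, by 0.28 on the log2 scale (SE 0.0551, Benjamini-Hochberg adjusted p = 0.0166, edgeR's quasi-likelihood test), and the call was lost when NC replicate 3 (adjusted p = 0.0609) or shPRMT6 replicate 1, 2 or 3 (0.0677, 0.0672 and 0.0747) was left out. NOC2L (ENSG00000188976, chr1:944204-959309, minus strand), also known as an inhibitor of histone acetyltransferases, had 151, 140.2 and 147 CPM in NC and 123, 129 and 122 CPM in shPRMT6. The groups did not overlap, and NOC2L fell by 0.23 on the log2 scale (SE 0.0578, adjusted p = 0.0385, same test). The call of NOC2L held without NC replicate 2 and was lost without each of the other 5 libraries (adjusted p from 0.0816 to 0.132), by DESeq2 (adjusted p = 0.0529) and with trends on GC content and length removed (log2 fold change -0.15, adjusted p = 0.0979). PPAN, NOP16, RRP1, the RNA methyltransferase NOP2, RRS1 and NOC3L had log2 fold changes from -0.22 (PPAN, adjusted p = 0.0961, same test) to 0.08 (NOC3L). The shPRMT6 libraries of PPAN, RRP1 and NOP2 lay below all NC libraries, and those of NOP16, RRS1 and NOC3L overlapped with NC.

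LAS1L, the endonuclease that cuts the internal spacer of the large subunit precursor, works with the kinase NOL9 and with PELP1, TEX10, WDR18 and the SUMO protease SENP3. WDR18 and LAS1L were lower in shPRMT6 and the other 4 did not pass the test. WDR18 (ENSG00000065268, chr19:984271-998438, plus strand) had 23.2, 22.2 and 24.5 CPM in NC and 16.7, 16.1 and 15.3 CPM in shPRMT6. The groups were far apart relative to their spread, and WDR18 fell by 0.54 on the log2 scale (SE 0.0867, Benjamini-Hochberg adjusted p = 0.0084, edgeR's quasi-likelihood test). LAS1L (ENSG00000001497, chrX:65512582-65534775, minus strand) had 75.4, 68.2 and 66.5 CPM in NC and 53.4, 52.3 and 55.4 CPM in shPRMT6. Its log2 fold change was -0.38 (SE 0.0722, adjusted p = 0.0145, same test). LAS1L lost its call when shPRMT6 replicate 1 or 2 was left out (adjusted p = 0.0591 and 0.0669). The log2 fold change was 0.08 each for NOL9 (95% interval -0.15 to 0.31), PELP1 (-0.09 to 0.26) and TEX10 (-0.10 to 0.27), with overlapping groups. The FPKM ratio of LAS1L to NOL9 was 5.07 ± 0.199 in NC and 3.68 ± 0.239 in shPRMT6 (SD, n = 3).

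SENP3 (ENSG00000161956, chr17:7561875-7571969, plus strand) could not be read alone. It had 63.9, 16.97 and 60.5 CPM in NC and 69.3, 60.8 and 64.1 CPM in shPRMT6, with NC replicate 2 far below the other 5 libraries. Its log2 fold change was 0.46 (SE 0.448, Benjamini-Hochberg adjusted p = 0.535, edgeR's quasi-likelihood test) and 0.06 without NC replicate 2. The table also lists the readthrough gene SENP3-EIF4A1, which shares 1511 exon bases with SENP3, 41.2% of those of SENP3. SENP3-EIF4A1 had 77.9, 216 and 87.2 CPM in NC and 24.3, 49.9 and 16.5 CPM in shPRMT6, so NC replicate 2, the lowest library for SENP3, was the highest for the readthrough gene. Its log2 fold change was -2.07 (adjusted p = 0.0443, same test). The sum of SENP3 and SENP3-EIF4A1 was 142, 233 and 148 CPM in NC and 93.5, 111 and 80.6 CPM in shPRMT6, a log2 fold change of -0.87 (adjusted p = 0.0356, same test), opposite in sign to SENP3 alone. EIF4A1, the translation initiation helicase encoded downstream, had 388, 214 and 321 CPM in NC and 364, 409 and 417 CPM in shPRMT6 (log2 fold change 0.37, adjusted p = 0.266, same test). The sum of all 3 genes was 529.7, 446 and 468 CPM in NC and 457, 519.7 and 497 CPM in shPRMT6, which overlapped. How reads in shared exons were assigned is not given in the sources used here, and no direction is given for SENP3.

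**Figure D3:**
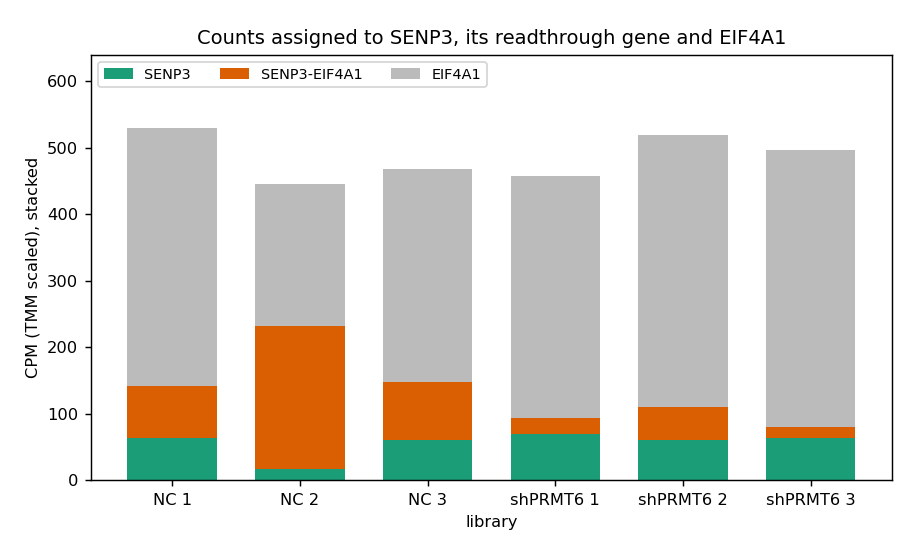
Stacked CPM of SENP3, the readthrough gene SENP3-EIF4A1 and EIF4A1 in each library (x axis). In NC replicate 2 the readthrough gene takes 216 CPM and SENP3 16.97 CPM, and the total of the 3 genes runs from 446 to 529.7 CPM over the 6 libraries.

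Of the 5 genes grouped as abundant nucleolar proteins, NOLC1 was higher and none was lower. The group name does not describe the levels measured here, where NOLC1 ranked 15 among the 45 genes by FPKM in NC. NOLC1 (ENSG00000166197, chr10:102152176-102163871, plus strand) encodes a phosphoprotein that shuttles between nucleolus and Cajal bodies and binds snoRNPs. It had 67.0, 71.8 and 64.5 CPM in NC and 129.9, 120.1 and 127 CPM in shPRMT6. Each shPRMT6 library lay far above every NC library. NOLC1 rose by 0.89 on the log2 scale (SE 0.0675, Benjamini-Hochberg adjusted p = 8.8e-04, edgeR's quasi-likelihood test), to 185% of the NC mean, and had the smallest p of the 45 genes. NPM1, the most abundant of the 45 genes by FPKM in NC (180, then 142 for FBL and 67.2 for NCL), had a log2 fold change of -0.10 (95% interval -0.27 to 0.07). NCL, the RNA helicase DDX21 and the GTPase GNL3 had log2 fold changes of -0.04, 0.13 and 0.09. The shPRMT6 libraries of GNL3 lay above all NC libraries by a very small margin, and those of NCL and DDX21 overlapped with NC. NCL spread from 486 to 587 CPM in NC and from 454 to 630 CPM in shPRMT6, so a change of up to about 0.28 up or 0.36 down on the log2 scale lay within its 95% interval.

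The calls differed in how firmly they held. NOLC1, BOP1, NOP56, NOC4L, FBL and WDR18 passed the test in the 16 other fits, which were 6 fits that each left out 1 library and 10 with another tool, scaling, filter, unit or model. None of the 13 genes that passed changed sign in any of them. The other 7 each lost the call in at least 3 of the 16. Besides the fits named above, LAS1L, NHP2, POLR1B, MRTO4, WDR43 and NOC2L lost it when replicate number was a block in the model. WDR43 and NOC2L also lost it with the filter of 1 count in any library.

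GC content went with the changes. Across the 45 genes, the log2 fold change and the GC content of the longest transcript had a Spearman correlation of -0.48 (all genes tested with both, -0.14, n = 17873), as a description over genes that share the same 6 libraries. The median GC content was 57.1% in the 11 lower genes and 47.2% in the 32 that did not pass, beside 48.0% over all genes tested. WDR18 (65.9%), BOP1 (65.2%) and NOC4L (64.8%) had the highest GC content of the 45 genes, and WDR43 (40.3%) was lower in shPRMT6 with a low GC content. With the trends of each library on GC content and length removed, a fit added after the data had been seen, 11 genes were lower and 1 was higher, beside 10.4% and 10.5% of all genes in that fit. In that fit the log2 fold change was -0.49 for BOP1, -0.71 for NOC4L, -0.48 for FBL, -0.46 for NOP56, -0.36 for WDR18 and 0.86 for NOLC1, all still past the threshold.

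Overlapping genes limit some of these values. Exons of 14 of the 45 genes lie over a gene on the opposite strand. Among the genes that passed, besides NHP2, this holds for NOC2L (SAMD11, 6.82% of its exon bases, 4.51 to 5.90 CPM) and MRTO4 (EMC1, 0.496%). PPAN shares 56.02% of its exon bases with the readthrough gene PPAN-P2RY11, which had at most 2.03 CPM, and NOP2 shares 54.4% with ENSG00000285238, which had at most 1.56 CPM.

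Some genes of the list hold snoRNA genes, which guide the same modifications, in their introns or exons. The annotation places 33 snoRNA genes inside NOP56, NOP58, DKC1, TAF1D, WDR43, PPAN, NCL and GNL3. Only SNORA8 and SNORA18, both in TAF1D, had at least 10 counts in every library. SNORA8 had 31, 40 and 23 counts in NC and 53, 29 and 44 in shPRMT6, and SNORA18 had 58, 89 and 87 in NC and 58, 50 and 66 in shPRMT6, with overlapping groups in both. SNORA8 and SNORA18 share 139 and 132 bases with exons of TAF1D, so their reads cannot be told apart from those of TAF1D there. For the others, counts were too low for a change to be read, and 6 were listed at exactly 1 count in every library.

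A further 128 genes of the same pathway, written down from general knowledge, were all tested. Of these, 19 were lower (14.8%, beside 9.06% of all genes tested) and 8 were higher (6.25%, beside 9.51%), with a median log2 fold change of -0.04. When NC replicate 3 or shPRMT6 replicate 1, 2 or 3 was left out, 11, 10, 10 and 9 of them were lower and 3, 5, 3 and 3 higher, in fits that called 4.52% to 4.91% of all genes lower and 4.73% to 5.35% higher. With trends on GC content and length removed 13 were higher, beside 10.5% of all genes in that fit. The number of lower genes in that fit is not given here, so whether the lower share holds there is not shown. By role, 2 of 9 genes of RNA polymerase I, 1 of 6 of box C/D assembly, 5 of 42 of the small subunit, 7 of 45 of the large subunit and 4 of 14 of the exosome, the nuclease that trims precursors, were lower. The higher genes were 1 of 3 of box H/ACA, 4 of 42 of the small subunit, 2 of 45 of the large subunit and 1 of 14 of the exosome. None of the 9 protein genes of RNase MRP and RNase P passed the test. The E-box was found in 30 of the 108 with a promoter window (27.8%).

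The 4 lower genes with the smallest p were GNL3L, NOL12, RUVBL2 and TCOF1. GNL3L, a GTPase related to GNL3, had 30.1, 31.9 and 29.2 CPM in NC and 16.1, 16.96 and 18.6 CPM in shPRMT6 (log2 fold change -0.82, Benjamini-Hochberg adjusted p = 0.0025, edgeR's quasi-likelihood test). NOL12, an RNA-binding nucleolar protein, had 21.8, 21.5 and 22.7 CPM in NC and 14.2, 14.5 and 13.9 CPM in shPRMT6 (log2 fold change -0.63, adjusted p = 0.0038, same test). In both genes the groups were far apart. RUVBL2, an ATPase that assembles box C/D particles, had 94.5, 84.2 and 93.9 CPM in NC and 64.2, 67.3 and 61.9 CPM in shPRMT6 (log2 fold change -0.49, adjusted p = 0.0061, same test). TCOF1, the treacle protein that works with RNA polymerase I, had 73.4, 76.1 and 74.4 CPM in NC and 57.3, 56.4 and 58.3 CPM in shPRMT6 (log2 fold change -0.38, adjusted p = 0.0064, same test). Again no shPRMT6 library reached the NC libraries. The 4 higher genes with the smallest p were ZNF622, NOP10, MPHOSPH10 and UTP3, and in each of them the groups did not overlap. Genes picked by p are likely to be apart in this way, so it adds nothing to the test. Of the 128 genes, 33 were apart and lower and 23 apart and higher, beside 19.9% and 20.3% of all genes tested. ZNF622, a zinc finger protein of late large subunit maturation, had 35.1, 39.2 and 37.3 CPM in NC and 55.5, 52.6 and 53.8 CPM in shPRMT6 (log2 fold change 0.54, adjusted p = 0.0047, same test). MPHOSPH10, which joins the U3 snoRNP, had 25.4, 27.3 and 23.1 CPM in NC and 37.6, 34.7 and 36.0 CPM in shPRMT6 (log2 fold change 0.51, adjusted p = 0.0111, same test). UTP3, a small subunit processome factor, rose least, from 44.3, 46.2 and 46.2 CPM in NC to 55.9, 55.7 and 56.1 CPM in shPRMT6 (log2 fold change 0.29, adjusted p = 0.0188, same test). NOP10, the box H/ACA core protein, had 115, 91.6 and 95.1 CPM in NC and 151, 153 and 146 CPM in shPRMT6 (log2 fold change 0.57, adjusted p = 0.0097, same test), opposite in direction to its partner NHP2. TCOF1 is known to bind NOLC1, and the 2 genes also differed in direction.

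**Figure D4:**
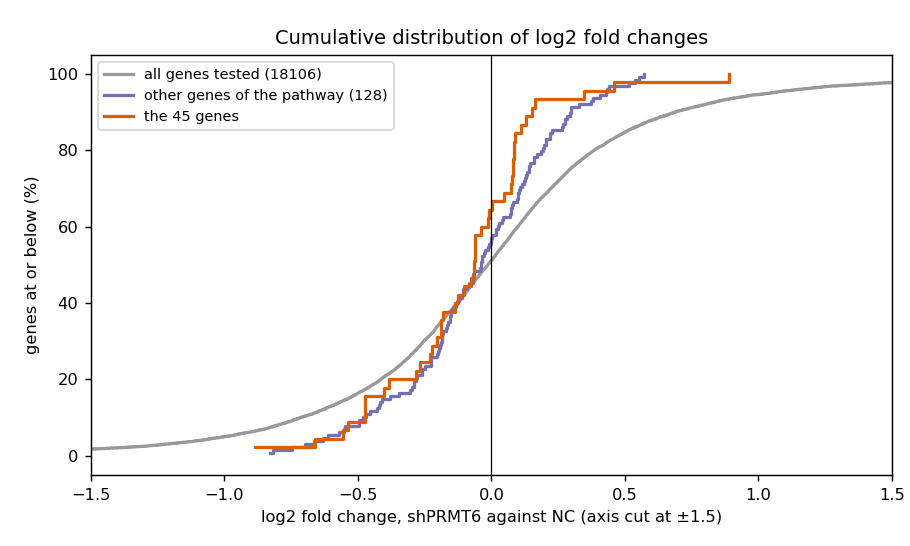
Cumulative share of genes (y axis, percent) at or below each log2 fold change (x axis, shPRMT6 against NC) for the 45 genes, the other 128 genes of the pathway and all 18106 genes tested. The 45 genes run from -0.89 to 0.89 and the 128 from -0.83 to 0.57, and 29 of the 45 genes and 72 of the 128 lie below 0.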

How the data were processed

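The 6 U87 libraries (3 NC, 3 shPRMT6) were made with the NEBNext Ultra RNA kit, and samples were grouped by the treatment in the labels. For each gene and library the authors deposited the raw count of reads. FPKM values, which the authors deposited beside it, are relative to transcript length and library size and were used for levels between genes. The submitters' processing notes name HISAT2, HTSeq 0.13.5 and GRCh38. The annotation release, the use of strand and the rule for reads in shared exons are not given in the sources used here.

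Counts of all genes were fitted with edgeR 4.0.16 in R 4.3.3 (filterByExpr, TMM factors from 0.992 to 1.01, quasi-likelihood test of the condition, Benjamini-Hochberg adjustment over the 18106 genes tested, threshold 0.05). Errors are SD over 3 libraries or the SE of the log2 fold change. No library was a duplicate of another (within groups, chi-square over degrees of freedom was 48.2 to 78.4). Where nothing shows separate cultures beyond the word independent in the methods, p-values measure the spread between these libraries. Identifiers were matched to symbols for 60401 of 60612 genes, and positions, overlaps, GC content and transcript lengths came from GENCODE 29 on GRCh38 with Python 3.11.15. RefSeq promoter windows came from GRCh38.p14.

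Named with values in each library were PRMT6, the genes of the list past the threshold and, of the wider list, the 4 with the smallest p in each direction. Overlapping readthrough, antisense and snoRNA genes are given by library or by range. Values of partners in the same complex, among them TAF1A, TAF1B and TAF1C, and of UTP20 were added after they had been seen. The genes, the wider list and the ratios were chosen with earlier results of these data known.

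Alternatives were DESeq2 1.42.0, no or upper quartile scaling, filters of 10 counts in each library or 1 count in any, a replicate block, limma 3.58.1 on log2 of FPKM plus 1 or plus 0.1 (mean FPKM at or above 1), each library left out in turn, readthrough counts summed, the threshold of the study's methods (absolute log2 fold change above 1 and unadjusted p under 0.05), and a fit without trends on GC content and length. The programs were tested on simulated data. The proteome was not analysed here.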

Additional observations from a re-analysis of the deposited data

How the results depend on the processing

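Across the 16 other fits, 6 of the 13 genes that passed (NOLC1, BOP1, NOP56, NOC4L, FBL and WDR18) passed in each, none of the 13 changed sign, and 10 of the 32 that did not pass did. With each library left out in turn, 5 to 10 of the 45 genes were lower and 1 to 2 higher, 9 to 18 and 3 to 12 of the 128 others, and 1755 to 3183 of all genes passed. Of all genes, 1939, 1871, 1755 and 1858 passed when NC replicate 3 or shPRMT6 replicate 1, 2 or 3 was left out, in fits with fewer samples. PRMT6 ranged from -1.0004 to -0.73. In the same fits UBTF ranged from -0.062 to 0.059, NOP58 from -0.093 to 0.16, TAF1D from -0.064 to 0.092, NCL from -0.18 to 0.066, POLR1C from -0.0044 to 0.15 and RRN3 from -0.016 to 0.085. With the replicate block, 6 of the 45 were lower and 1 higher, 12 and 3 of the others, 1858 genes passed, PRMT6 was -0.88 (adjusted p = 0.0803, edgeR) and NOP58 was 0.0028. Shares of all genes by direction are not given for this fit or for those without NC replicate 1 or 2. The counts of those fits cannot be set beside such shares. Samples with the same number shared only that number (correlation of their deviations -0.0006, -0.0452 and -0.068 over 10051 genes), and no library correlated best with its own number. The threshold of the study's methods left 0 of the 45 genes and 0 of the 128 in either direction, and 1072 genes in all. Without trends on GC content and length, 1 of the 45 and 13 of the 128 were higher, and TEX10 was -0.0093, RRN3 -0.053, PES1 0.035 and NOP2 0.0068. UBTF was -0.0027 without scaling and -0.0057 with upper quartile factors, NOP58 was 0.010 and 0.012 by limma, and SENP3 summed with its readthrough gene was -0.87. Except for SENP3, where the sum adds counts, the cause of these moves was not tested. Values are log2 fold changes. With 3 libraries a group, the smallest change of the 45 genes that passed was -0.23, and only 2 of the 33 snoRNA genes inside the 45 genes had at least 10 counts in every library.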
